A study of Mus musculus with 33 samples.

Results

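The comparison described here is between 15 mouse mammary tumours, 11 whose titles begin with MYT and 4 whose titles begin with VEH, of the 33 tumours profiled by RNA-seq. Members were chosen by title alone, among titles that carry no suffix after the number, and a further tumour titled VEH whose treatment field names RP-6306 belongs to neither group. The MYT tumours had received RP-6306 at 20 mg/kg and the VEH tumours had received vehicle. All 15 had been transplanted into mice, all carry FVB in the genotype field, and the series description speaks of tumours of cyclin E transgenic mice and of PyMT tumours without saying which sample is which. The treatment protocol gives that dose per day and the sample fields give it with a twice-daily abbreviation, and the sources used here do not state how long treatment lasted. The labels name neither the tumour line from which each sample was grown nor separate animals, so an effect of RP-6306 and a difference between tumours cannot be told apart, and each p-value reflects only how much these tumours vary. Libraries held 13701115 to 20105407 counts in MYT tumours and 13965442 to 15972632 counts in VEH tumours.

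RP-6306 inhibits PKMYT1, a membrane-bound kinase that places inhibitory phosphates on CDK1 and so holds cells back from mitosis. Cyclin E drives entry into DNA replication, and tumours with excess cyclin E accumulate replication stress. Mammary tumours range from epithelial forms, which keep keratins, E-cadherin and tight junctions, to mesenchymal forms, in which repressors of the SNAI and ZEB families silence those genes and matrix and contractile genes are active. Tumour RNA also holds RNA of stromal and immune cells, and in such bulk samples fewer cells of a type and less RNA per cell cannot be told apart.

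The 2 groups stood far apart. Of 16021 genes tested with edgeR's quasi-likelihood test, 59.5% passed an adjusted p of 0.05 (9531 genes), 4883 higher in MYT tumours (30.5%) and 4648 lower (29%). These percentages are the background for every count of list members below, and the median log2 fold change of all genes tested was 0.04. Of the genes that passed, 2700 of the higher and 2919 of the lower had no overlap in CPM (counts scaled to a fixed library total) between groups. Beyond 8-fold lay 547 higher and 540 lower genes, and beyond 32-fold 85 higher and 107 lower. Of the 6490 genes that did not pass, 4667 had a 95% interval of the log2 fold change within 1 of 0. All higher and lower values below are of MYT relative to VEH tumours, and a gene rose or fell only where it passed this test.

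Some libraries lay nearer to the other group than the rest. On the 1st principal component of the 15 libraries (65.8% of the variance), MYT tumours lay between -62.6 and -12.28 and VEH tumours between 104.11 and 148.93, with MYT replicates 8 (-12.28) and 10 (-22.07) and VEH replicate 1 (104.11) nearest to the other group. Over 86 abundant genes of the epithelial lists that had been called higher, VEH replicate 1 held a median of 20.8% of the MYT mean, against 4.7%, 2.09% and 2.54% in VEH replicates 2, 3 and 4. Over 117 abundant genes of the mesenchymal lists that had been called lower, MYT replicates 8 and 10 held medians of 35.5% and 28.6% of the VEH mean, against 15.2% to 27.4% in the other 9 MYT tumours. Without these 3 libraries 8884 genes passed, and 8561 of the genes called on all 15 libraries kept their call and direction.

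Pkmyt1, the target of RP-6306, lies on chromosome 17 from 23726336 to 23736735 of GRCm38. Its level was 59.3 to 94.7 CPM in MYT tumours (median 78.6), against 28, 20.2, 17.3 and 26.7 CPM in VEH tumours. Every MYT tumour exceeded every VEH tumour, and the log2 fold change was 1.78 ± 0.14 (SE, edgeR adjusted p = 3.44e-08). RNA level says nothing of the kinase's activity.

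Of 16 genes for CDK1 and its regulators, 13 rose, 0 fell and 3 did not pass, with a median log2 fold change of 0.73. Cdc25c, the phosphatase that removes the phosphates PKMYT1 and WEE1 place, had 22.1 to 47.9 CPM in MYT tumours (median 35.6) and 8.3, 6.14, 6.91 and 10.9 CPM in VEH tumours, and it rose more than the rest of the list (2.20 ± 0.21). Plk1, a mitotic kinase, rose by 1.05 ± 0.20. Ccnb2, which encodes cyclin B2, was among the 3 that did not pass (0.33 ± 0.21, edgeR adjusted p = 0.178). Promoters of cell cycle genes are known for CCAAT boxes, bound by NF-Y, and for CHR elements. RefSeq windows of 250 bases before to 50 after the gene start (GRCm38.p6) were matched for 11 of these 16 genes, and all 11 held CCAAT on either strand (100%), against 38.4% of 11106 windows of tested genes. The CHR letters TTTGAA stood in 45.5% of the 11, against 12% of all. The stretches before the starts of Cdk1, the mitotic kinase itself, and Ccnb1, which encodes its partner cyclin B1, are shown for this reason. Matches to CCAAT and TTTGAA on either strand are in capitals. The Ccnb1 stretch holds 2 matches, both to CCAAT, and no TTTGAA.
Cdk1, chr10:69352913-69353012, minus strand: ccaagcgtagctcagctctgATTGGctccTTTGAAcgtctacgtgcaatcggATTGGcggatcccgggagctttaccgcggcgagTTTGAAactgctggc
Ccnb1, chr13:100786487-100786596, minus strand: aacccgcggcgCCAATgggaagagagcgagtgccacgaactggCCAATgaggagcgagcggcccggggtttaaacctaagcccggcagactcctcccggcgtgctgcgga

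Other genes of proliferation moved with them. Of 47 genes of origin licensing and the replication fork, 37 rose and 2 fell (median 0.77). Mcm7, a subunit of the replicative helicase, had 137 to 238 CPM in MYT tumours (median 202), against 82.3, 52.1, 58.2 and 77 CPM in VEH tumours (log2 fold change 1.54 ± 0.16), and the clamp loader gene Rfc4 rose by 1.80 ± 0.15. Homologous recombination and Fanconi genes gave 13 higher and 2 lower of 27, among them Bard1 (1.61 ± 0.13) and the resection nuclease gene Exo1 (1.66 ± 0.14), with Mre11a lower (-0.43 ± 0.10). Atm, the kinase that signals double-strand breaks, fell by 1.25 with an SE of 0.22. Both Mre11a and Atm lie on chromosome 9, where 57.9% of 869 tested genes fell.

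The cyclin genes did not move as a block. Of 14 genes for cyclin E, its turnover and the response to PKMYT1 inhibition, 6 rose and 4 fell. Ccne1, cyclin E1, had 2.53 to 7.52 CPM in MYT tumours (median 5.69) and 15.2, 9.9, 10.4 and 17.6 CPM in VEH tumours, and it fell in every MYT tumour relative to every VEH tumour (-1.30 ± 0.23). Counts per gene do not separate a cyclin E transgene from the mouse gene. Fbxw7, which targets cyclin E for degradation, rose by 1.07 ± 0.11. Ccnd2, cyclin D2, was among the 10 genes with the smallest p when predicted, clone, Riken and pseudogene names were left out. It had 8.62 to 21.9 CPM in MYT tumours (median 13.3) against 193, 174, 138 and 165 CPM in VEH tumours (-3.58 ± 0.18, edgeR adjusted p = 4.21e-10). Cdkn2a, the INK4A and ARF tumour suppressor locus, stood at 53.9 to 252 CPM in MYT tumours (median 131), against 455, 411, 397 and 377 CPM in VEH tumours (-1.64 ± 0.26). Of 20 p53 genes and targets, 3 rose and 6 fell, a share of 45% called. Trp53 itself was not called (0.36 ± 0.20, edgeR adjusted p = 0.139). It passed without VEH replicate 3 (0.57, adjusted p = 0.0302), with MYT replicates 1, 2, 8, 9 and 10 alone (0.53, adjusted p = 0.0394) and under limma voom with sample weights (0.45, adjusted p = 0.0408). Its antagonist Mdm2 was not called (-0.18 ± 0.10, adjusted p = 0.124), while the targets Eda2r (-4.18 ± 0.37), Zmat3 (-1.45 ± 0.18) and Sesn1 (-1.19 ± 0.15) fell and Pmaip1, encoding NOXA, rose (0.99 ± 0.19).

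Epithelial genes were higher across junctions, keratins and regulators. Of 21 claudins and tight junction genes, 17 rose and 3 fell (median 3.85). The 3 that fell were Cldn5 (-1.79 ± 0.31), which encodes the claudin of blood vessels, Cldn15 (-1.16 ± 0.30) and Cldn12 (-0.31 ± 0.13). The call of Cldn12 was lost when any 1 of 10 single libraries was left out, most clearly VEH replicate 4 (-0.17, edgeR adjusted p = 0.284). Of 17 keratins, 15 rose and 0 fell (median 3.36), and the 2 not called included the basal keratin Krt5 (1.56 ± 0.79, adjusted p = 0.0974), which passed without VEH replicate 2 (2.7, adjusted p = 0.0212) or MYT replicate 5 (1.69, adjusted p = 0.0468). Epcam, the epithelial adhesion molecule, had 969 to 1930 CPM in MYT tumours (median 1430), against 239, 26.3, 8.92 and 9.86 CPM in VEH tumours (4.33 ± 0.77, edgeR adjusted p = 0.000122). Krt7, a simple epithelial keratin, had 386 to 2210 CPM in MYT tumours (median 844) and 60.6, 10.2, 4.22 and 2.79 CPM in VEH tumours. In both genes VEH replicate 1 stood above the other VEH tumours and below every MYT tumour. Krt8 moved less, with 946 to 2670 CPM in MYT tumours and 876, 668, 505 and 1530 CPM in VEH tumours (0.86 ± 0.28). Its groups overlapped, and its call was lost without VEH replicate 2 (0.75, edgeR adjusted p = 0.0506) or VEH replicate 3 (0.68, adjusted p = 0.0537). Desmosome and adherens junction genes gave 12 higher and 2 lower of 20, with the plakophilin gene Pkp3 at 3.44 ± 0.21 and the mesenchymal cadherin Cdh11 at -1.51 ± 0.27.

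The regulators of this programme were measured too. Of 19 epithelial transcription and splicing factors, 17 rose, 1 fell and 1 was not called (median 3.88). Grhl2, which maintains epithelial enhancers, had 104 to 166 CPM in MYT tumours (median 128) and 28.3, 3.54, 0.415 and 1.71 CPM in VEH tumours (3.95 ± 0.68). Esrp1, which directs epithelial splicing, rose by 4.37 ± 0.64, Ovol2, a repressor of ZEB genes, by 5.67 ± 0.56, and Elf5, a driver of alveolar fate, by 4.2 ± 0.65. Gata3, the luminal factor, rose by 1.69 ± 0.19, and Klf4 was the 1 that fell (-1.13 ± 0.17). Sox10, a factor of mammary stem-like cells and also of glia, had 485 to 862 CPM in MYT tumours (median 659), against 113, 12.9, 8.22 and 50.7 CPM in VEH tumours (3.87 ± 0.53). Trp63, the basal epithelial factor, was not called (-0.62 ± 0.55), but passed without MYT replicate 9 (-1.09, edgeR adjusted p = 0.0298).

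The letters CACCTG, the E-box that SNAI and ZEB repressors are known to bind, stood in 70% of 10 keratin promoters, in 47.1% of 17 tight junction promoters and in 72.7% of 11 promoters of epithelial proteases and their inhibitors, against 17.8% of all 11106. Among all tested genes it was in 20.9% of 3462 promoters of genes that rose, in 15.9% of 3403 of genes that fell and in 16.6% of 4241 of genes that were not called. The windows before Epcam and Krt7 are shown because these genes are described above, with CACCTG in capitals on either strand. Of the other letters searched on both strands, TTTCCCGC, known for E2F, stood in 2.86% of promoters of genes that rose and 1.23% of those that fell, TGANTCA, known for AP-1, in 5.03% and 5.73%, and GGAATG, known for TEAD factors, in 11.9% and 13.1%. A match is a description of letters in this window and says nothing of binding.
Epcam, chr17:87635779-87635978, plus strand: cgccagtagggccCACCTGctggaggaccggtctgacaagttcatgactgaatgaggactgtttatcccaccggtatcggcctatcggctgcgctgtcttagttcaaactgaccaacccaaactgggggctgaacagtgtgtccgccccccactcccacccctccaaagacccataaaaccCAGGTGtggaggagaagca
Krt7, chr15:101412303-101412402, plus strand: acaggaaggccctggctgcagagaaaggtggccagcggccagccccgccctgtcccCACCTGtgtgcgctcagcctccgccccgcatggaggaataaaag

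**Figure D1:**
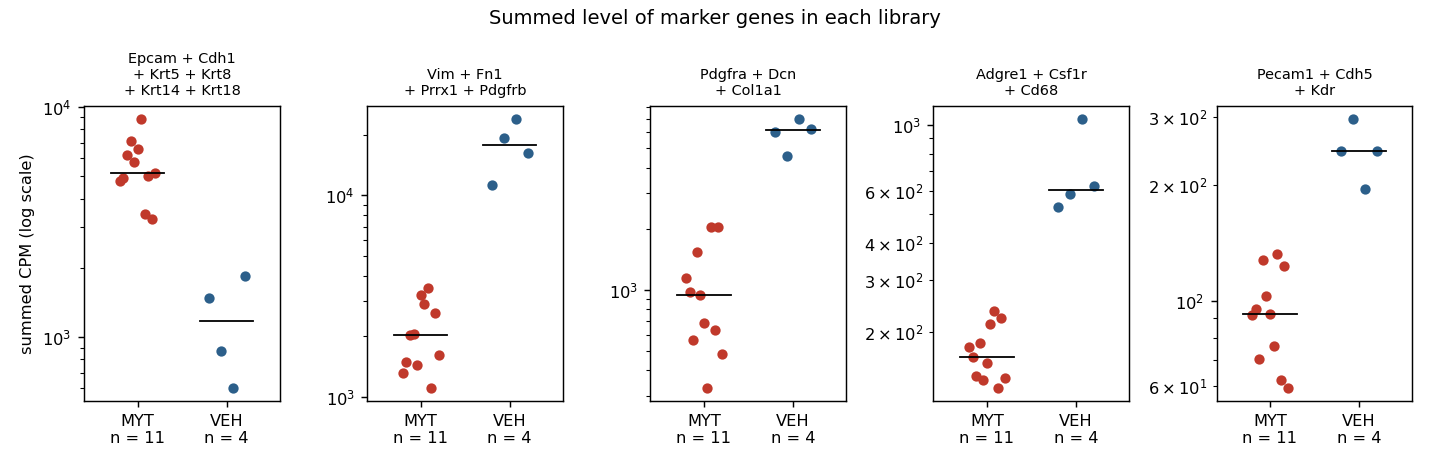
Summed CPM (log scale) of 5 marker sets in each library, MYT left and VEH right, with a line at each group's median and points spread sideways for visibility. The epithelial sum was 3260 to 8830 CPM in MYT tumours and 601 to 1840 CPM in VEH tumours, and the mesenchymal, fibroblast, macrophage and endothelial sums were lower in every MYT tumour than in any VEH tumour.

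Genes of secretory and luminal cells were part of the difference. Of 16 milk protein and mucosal secretion genes, 12 rose and 1 fell (median 4.02). Csn1s1, an alpha casein, had 459 to 1260 CPM in MYT tumours (median 854), against 277, 29, 5.05 and 16.2 CPM in VEH tumours (3.32 ± 0.76), and Ltf, encoding lactoferrin, had 25.2 to 466 CPM in MYT tumours (median 143) and 4.84, 2.17, 0.691 and 1 CPM in VEH tumours (6.38 ± 0.94). Whey acidic protein (Wap) and alpha-lactalbumin (Lalba) are markers of full lactation. Wap was near 0 in both groups, at no more than 0.0677 CPM in MYT tumours and 0 CPM in VEH tumours. Lalba was low, at no more than 4.23 CPM in MYT tumours and 0.433 CPM in VEH tumours. The summed level of 3 markers of normal secretory mammary cells was 120 to 1230 CPM in MYT tumours (median 370). In VEH tumours that sum was 80.3, 9.46, 5.25 and 8.93 CPM, and 1 of its 2 tested genes rose. Hormone genes were split, with 5 of 17 higher and 7 lower. Prlr, the prolactin receptor, rose by 3.89 ± 0.44, whereas Greb1, a target of oestrogen receptor, had at most 0.786 CPM in MYT tumours (median 0.0684), against 15.3, 11.6, 30.5 and 74.3 CPM in VEH tumours (-7.53 ± 0.58).

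Among abundant genes, the largest increases were in Alox12e, Ly6d, Ltf, Lgals7, Gabrp, Plekhs1, Krt7, Fxyd3, Cited4 and Atp6v1c2, with log2 fold changes of 4.87 to 6.85. Alox12e, an epidermal 12-lipoxygenase, had 34.4 to 228 CPM in MYT tumours (median 124), against 2.94, 0.361, 0.484 and 0.0715 CPM in VEH tumours. Several of these, such as Ly6d, Lgals7 and Fxyd3, are known from stratified or glandular epithelium, and Gabrp is a marker of basal-like breast tumours. In each of the 10, the highest VEH tumour lay below the lowest MYT tumour. These genes were picked for the size of their change, so this adds little, and 2700 of all 4883 higher genes had no overlap.

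The mesenchymal side moved the other way. Of 18 transcription factors of epithelial-mesenchymal transition, 13 fell and 4 rose (median -2.03). Zeb2 had 17.5 to 40.3 CPM in MYT tumours (median 23.8), against 112, 145, 145 and 144 CPM in VEH tumours (-2.41 ± 0.17), and Zeb1 fell by 3.12 with an SE of 0.30. Snai1 (-2.15 ± 0.16), Prrx1 (-3.56 ± 0.20) and Tbx3 (-3.55 ± 0.28) also fell. Twist1 was not called (-0.49 ± 0.25, edgeR adjusted p = 0.101), though it passed without MYT replicate 4 (-0.57, adjusted p = 0.0464) or MYT replicate 7 (-0.59, adjusted p = 0.0339). Foxc1 (1.61 ± 0.15), Msx1 (0.98 ± 0.27), Tbx2 (2.38 ± 0.33) and Snai3 (3.21 ± 0.63) rose. Vim, the mesenchymal intermediate filament, had 422 to 1260 CPM in MYT tumours (median 766), against 4300, 4540, 5100 and 5700 CPM in VEH tumours (-2.59 ± 0.25).

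Collagens moved in both directions. Of 36 tested, 21 fell and 9 rose (median -0.92). Among those that fell were Col1a1 at 292 to 1940 CPM in MYT tumours (median 927) and 5120, 3710, 6040 and 5300 CPM in VEH tumours (-2.34 ± 0.37), Col3a1 at -2.99 ± 0.44 and Col5a1 at -3.25 ± 0.31. The microfibrillar chains Col6a1 (-2.76 ± 0.34) and Col6a3 (-2.84 ± 0.21) fell with them. The basement membrane chains Col4a5 (2.63 ± 0.32) and Col4a6 (2.94 ± 0.47), which are neighbours on the X chromosome, rose. Of 2 collagens of cartilage, Col9a1 stood at 51.4 to 154 CPM in MYT tumours (median 117) and 50.1, 3.54, 1.11 and 1.36 CPM in VEH tumours (2.89 ± 0.77), and Col2a1 rose by 3.05 ± 0.87 but did not pass under limma voom (2.66, adjusted p = 0.0581). Acan, the cartilage proteoglycan aggrecan, had at most 4.13 CPM in MYT tumours (median 0.341), against 252, 489, 592 and 304 CPM in VEH tumours (-9.10 ± 0.68). Of 21 genes of collagen processing and crosslinking, 19 fell and 1 rose (P3h2, 1.57 ± 0.32).

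Of 19 matrix metalloproteinases and their inhibitors, 14 fell and 1 rose. Mmp9, gelatinase B, had 10.9 to 42.9 CPM in MYT tumours (median 18.7), against 1090, 1380, 2110 and 714 CPM in VEH tumours (-5.93 ± 0.32), while the membrane-bound Mmp15 rose (2.71 ± 0.39). Fn1, fibronectin, fell by 3.34 with an SE of 0.30 and its receptor chain Itga5 by 3.57 with an SE of 0.26. Of 10 laminins, 3 rose and 3 fell. Lama3, the alpha chain of laminin-332, had 24.8 to 141 CPM in MYT tumours (median 69.5), against 2.29, 2.75, 2.56 and 3.36 CPM in VEH tumours (4.74 ± 0.48), Lamb3 was not called (0.58 ± 0.33, edgeR adjusted p = 0.14), and Lamb1 fell by 1.51 with an SE of 0.18. Lamb3 passed without VEH replicate 3 (1.03, edgeR adjusted p = 0.0153) and under limma voom with sample weights (0.95, adjusted p = 0.00928). Of 27 integrins 6 rose and 12 fell, and the laminin-binding Itga6 rose by 1.30 ± 0.19. Itgb4 rose by 0.80 ± 0.22 but did not pass in a fit over 32 libraries (edgeR adjusted p = 0.149), with MYT replicates 1, 2, 8, 9 and 10 alone (0.0681) or with VEH replicates 3 and 4 alone (0.0755).

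Contractile genes fell in 16 of 21 (2 rose, median -1.19). Acta1, skeletal alpha-actin, had at most 5.34 CPM in MYT tumours (median 0.0631), against 598, 937, 217 and 70.3 CPM in VEH tumours (-9.62 ± 0.85), and Acta2, smooth muscle actin, had 29 to 102 CPM in MYT tumours (median 63.6), against 1870, 2290, 527 and 161 CPM in VEH tumours (-4.31 ± 0.42). Markers of skeletal muscle tissue were near 0 in both groups, with Ckm, Myh4 and Mylpf together at 0.503 to 1.38 CPM in MYT tumours and 0.643 to 3.59 CPM in VEH tumours. VEH replicates 1 and 2 were the highest in Acta1, Acta2 and the smooth muscle gene Cnn1 (0.243 to 3.6 CPM in MYT tumours, against 284, 342, 133 and 28.5 CPM in VEH tumours).

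**Figure D2:**
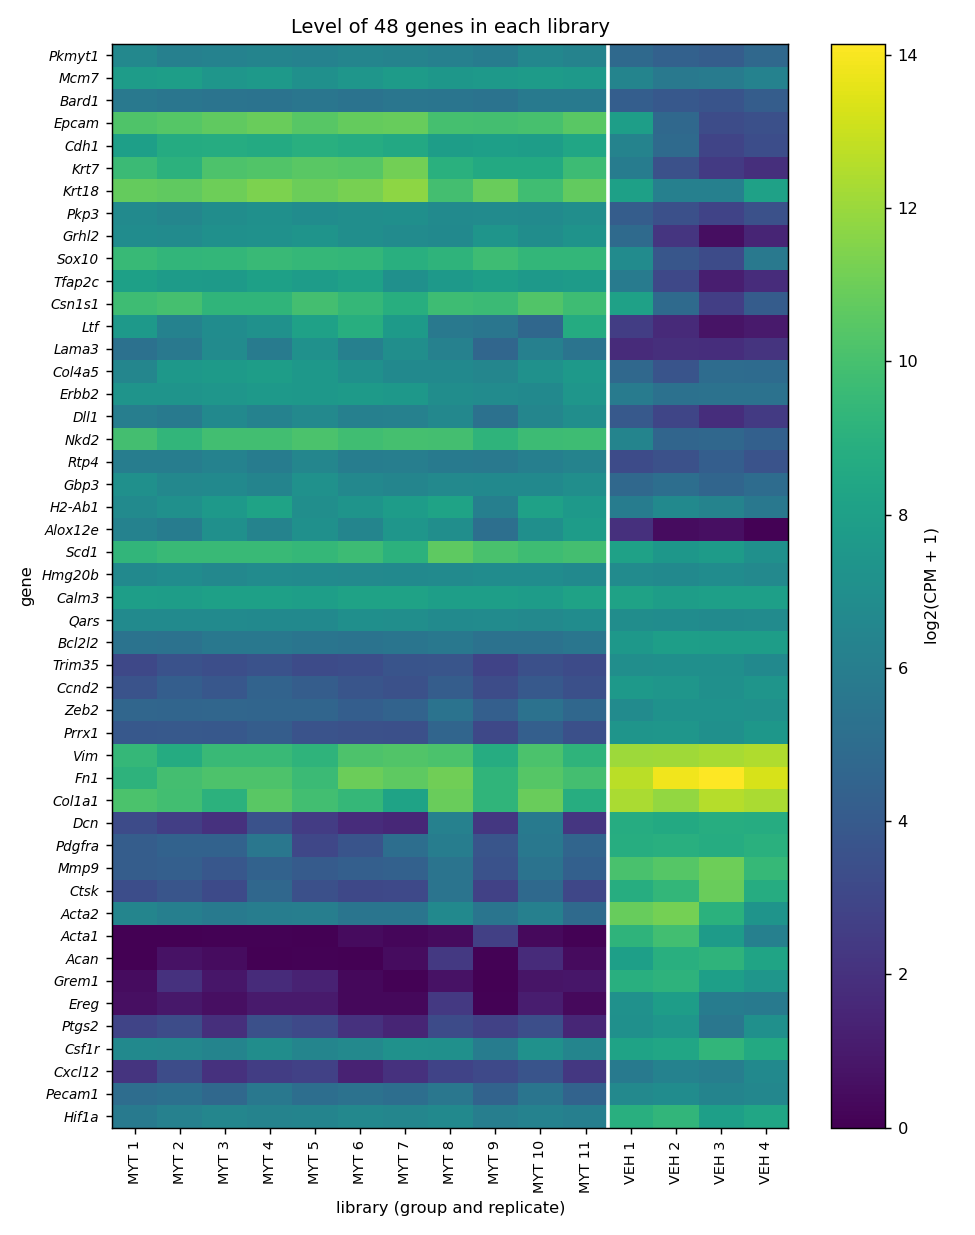
Level of 48 genes, as log2(CPM + 1), in each of the 11 MYT libraries (left of the white line) and 4 VEH libraries (right), lighter colours being higher levels. VEH 1 is lighter than VEH 2 to 4 in the rows of Epcam, Krt7, Grhl2, Sox10 and Csn1s1. This does not hold for every epithelial gene, and the epithelial marker sum was highest in VEH 4 (1840 CPM, against 1480 CPM in VEH 1). MYT 8 and MYT 10 are lighter than the other MYT libraries in Dcn, Mmp9 and Ctsk.

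Hox genes were not uniform. Of 24 tested, 5 rose and 11 fell. The 5 that rose were Hoxa2 (2.02 ± 0.24), Hoxa3 (1.27 ± 0.16), Hoxa4 (2.60 ± 0.38), Hoxa5 (1.25 ± 0.27) and Hoxa6 (1.69 ± 0.51), which stand next to each other in the HoxA cluster, and their neighbour Hoxa7 was not called (0.44 ± 0.48). In a fit over 32 libraries Hoxa3, Hoxa5 and Hoxa6 did not pass (edgeR adjusted p = 0.0862, 0.1 and 0.0616), and with MYT replicates 3 to 7 alone Hoxa7 passed (0.90, adjusted p = 0.0239). Hoxa9 (-1.68 ± 0.43), Hoxd8 (-2.18 ± 0.37) and Hoxd9 (-2.82 ± 0.63) fell. Hoxa3 had 31.6 to 55.3 CPM in MYT tumours (median 42.3), against 18, 15, 17.3 and 19.9 CPM in VEH tumours. Sgce (-3.50 ± 0.24) and Peg10 (-3.87 ± 0.36), imprinted neighbours of chromosome 6, both fell. They lie within the 1st 10 megabases of that chromosome, where 23 of 32 tested genes fell and 4 rose (median -0.83).

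Of 15 ERBB ligand, receptor and feedback genes, 4 rose and 6 fell. The ligand genes Ereg (-7.07 ± 0.54), Epgn (-4.32 ± 0.52) and Nrg1 (-2.90 ± 0.36) fell, and the receptors Erbb2 (1.86 ± 0.19) and Erbb3 (3.27 ± 0.60) and the ligands Tgfa (1.53 ± 0.38) and Nrg2 (2.79 ± 0.65) rose. Ereg, epiregulin, had 0.0684 to 4 CPM in MYT tumours (median 0.505), against 139, 231, 59.9 and 55.3 CPM in VEH tumours. Erbb2 had 103 to 206 CPM in MYT tumours (median 171), against 58.9, 38.4, 39.3 and 39.9 CPM in VEH tumours, and Egfr fell (-0.59 ± 0.15). The PDGF, VEGF and angiopoietin list gave 14 lower and 1 higher of 20, among them Angpt1 (-4.25 ± 0.33) and the PDGF receptor Pdgfra (-4.05 ± 0.40), and with placental growth factor Pgf higher (1.53 ± 0.27). Hgf (-5.07 ± 0.33), the ligand of MET, and Axl (-2.00 ± 0.21) fell.

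Of 29 BMP and GDF genes and their antagonists, 20 fell and 3 rose. Grem1, a secreted BMP antagonist, had at most 3.05 CPM in MYT tumours (median 0.721), against 481, 574, 251 and 174 CPM in VEH tumours (-8.60 ± 0.52). Bmp5 had 4 counts over all 11 MYT tumours and 928 over the 4 VEH tumours. The 3 that rose were Inhbb (1.13 ± 0.22), Id1 (0.80 ± 0.23) and Id4 (3.72 ± 0.77). TGF-beta genes gave 12 lower and 2 higher of 21, among them the receptor Tgfbr2 (-2.24 ± 0.17) and the target Tgfbi (-2.22 ± 0.15).

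Wnt genes were evenly split, 16 higher and 15 lower of 40. Nkd2, an inhibitor that is itself induced by Wnt signals, had 589 to 1110 CPM in MYT tumours (median 912), against 81.9, 23.6, 25.4 and 18.9 CPM in VEH tumours (4.55 ± 0.38). The receptor Fzd7 rose (2.08 ± 0.15) and the ligand Wnt5a fell (-3.28 ± 0.24), while Axin2, a general target of the pathway, was not called (-0.35 ± 0.25). In the Notch list 9 of 23 rose and 5 fell, with the ligand Dll1 (3.54 ± 0.41) and Notch3 (1.87 ± 0.35) higher and Notch2 (-1.10 ± 0.12) and the endothelial Notch4 (-2.20 ± 0.17) lower. Ephb2, a receptor of ephrin B ligands, had 0.256 to 2.29 CPM in MYT tumours (median 0.947), against 61.2, 74.3, 88.3 and 82.2 CPM in VEH tumours (-6.10 ± 0.29), whereas Ephb3 rose (1.51 ± 0.16).

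Genes induced by interferon were higher. Of 40, 35 rose and 1 fell, with a median of 1.33. The 1 that fell was Samd9l (-0.73 ± 0.27), whose call was lost without VEH replicate 2, 3 or 4 (edgeR adjusted p = 0.0661, 0.0779 and 0.0807). Samd9l lies in the same 10 megabases of chromosome 6 as Sgce and Peg10. Rtp4 had 51 to 88.9 CPM in MYT tumours (median 63.4), against 8.3, 10.3, 17.8 and 11.4 CPM in VEH tumours (2.48 ± 0.19), and Isg15, a ubiquitin-like modifier, rose by 2.18 ± 0.18. Gbp3, a guanylate-binding protein, had 83.2 to 139 CPM in MYT tumours (median 104), against 26.3, 32.9, 23.8 and 30.5 CPM in VEH tumours (1.92 ± 0.15), with no overlap. The letters GAAA, any 2 bases and GAAA again, the core of the element bound by interferon-activated factors, stood in 53.3% of 30 promoters of these genes, against 3.23% of all 11106, and the stretch before Gbp3 is shown with its 2 overlapping matches in capitals.
Gbp3, chr3:142559944-142560043, plus strand: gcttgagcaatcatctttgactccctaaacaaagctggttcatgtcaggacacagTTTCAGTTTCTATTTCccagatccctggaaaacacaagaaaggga
MHC class I genes and their loading machinery gave 13 higher and 1 lower of 18, with H2-K1 at 1 ± 0.22 and the peptide transporter Tap1 at 1.12 ± 0.18. MHC class II genes gave 5 higher and 1 lower of 10, with H2-Ab1 at 68 to 289 CPM in MYT tumours (median 190) and 59.5, 105, 80.7 and 50.4 CPM in VEH tumours, groups that overlapped (1.33 ± 0.34). Cxcl9 (3.27 ± 0.56), Cxcl10 (1.63 ± 0.36) and Cxcl11 (3.98 ± 0.59), chemokines induced by interferon gamma, rose.

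Cd3e, Cd8a and Cd4, which define T cells, summed to 1.76 to 10.8 CPM in MYT tumours and 5.1 to 11 CPM in VEH tumours, and none of them was called. Of 14 tested T and NK cell genes, 0 rose and 3 fell. Prf1, perforin, had at most 1.07 CPM in MYT tumours (median 0.189) and 41.9, 47, 1.87 and 1.43 CPM in VEH tumours, and its difference (-6.27 ± 0.81) was largest against VEH replicates 1 and 2. Gzmb, granzyme B, followed the same order (15, 13.1, 2.7 and 1.07 CPM in VEH tumours). Of 24 macrophage and monocyte markers, 18 fell and 2 rose. Csf1r, the receptor of the macrophage growth factor, had 61.5 to 142 CPM in MYT tumours (median 98.2), against 295, 336, 638 and 383 CPM in VEH tumours (-1.98 ± 0.20), and Mrc1 fell by 3.63 with an SE of 0.38, while Arg1 (1.17 ± 0.23) and Cd14 (0.78 ± 0.16) rose. Of 10 neutrophil markers 6 rose and 2 fell (median 1.28, range -5.93 to 6.38). The ends of that range equal the values given above for Mmp9 and Ltf. S100a8 (1.86 ± 0.37) and S100a9 (1.90 ± 0.35) were among those that rose. Ly6g had at most 0.832 CPM in MYT tumours and 0.523 CPM in VEH tumours.

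All 19 tested endothelial markers fell (median -1.14), with Pecam1 at 22 to 49 CPM in MYT tumours (median 34.2) and 99.8, 117, 81 and 92.1 CPM in VEH tumours (-1.46 ± 0.18). Of 20 fibroblast and pericyte markers, 14 fell and 1 rose. Many of these also mark mesenchymal tumour cells, and the part that stromal cells play was not tested. Mast cell proteases Mcpt4 (-6.60 ± 0.74) and Tpsb2 (-6.30 ± 0.76) fell, and both were highest in VEH replicates 1 and 2 (16, 16.3, 6.36 and 0.857 CPM of Mcpt4 in VEH tumours). Of 20 complement genes 15 fell and 2 rose. Chemokines and their receptors gave 10 higher and 20 lower of 38, and the monocyte attractant Ccl2 (-4.12 ± 0.42) and Cxcl12 (-3.76 ± 0.34) fell. Il33 (-4.89 ± 0.42) and its receptor Il1rl1 (-7.40 ± 0.64) fell together, and Il24 (5.76 ± 0.63) and Il23a (4.27 ± 0.54) rose.

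**Figure D3:**
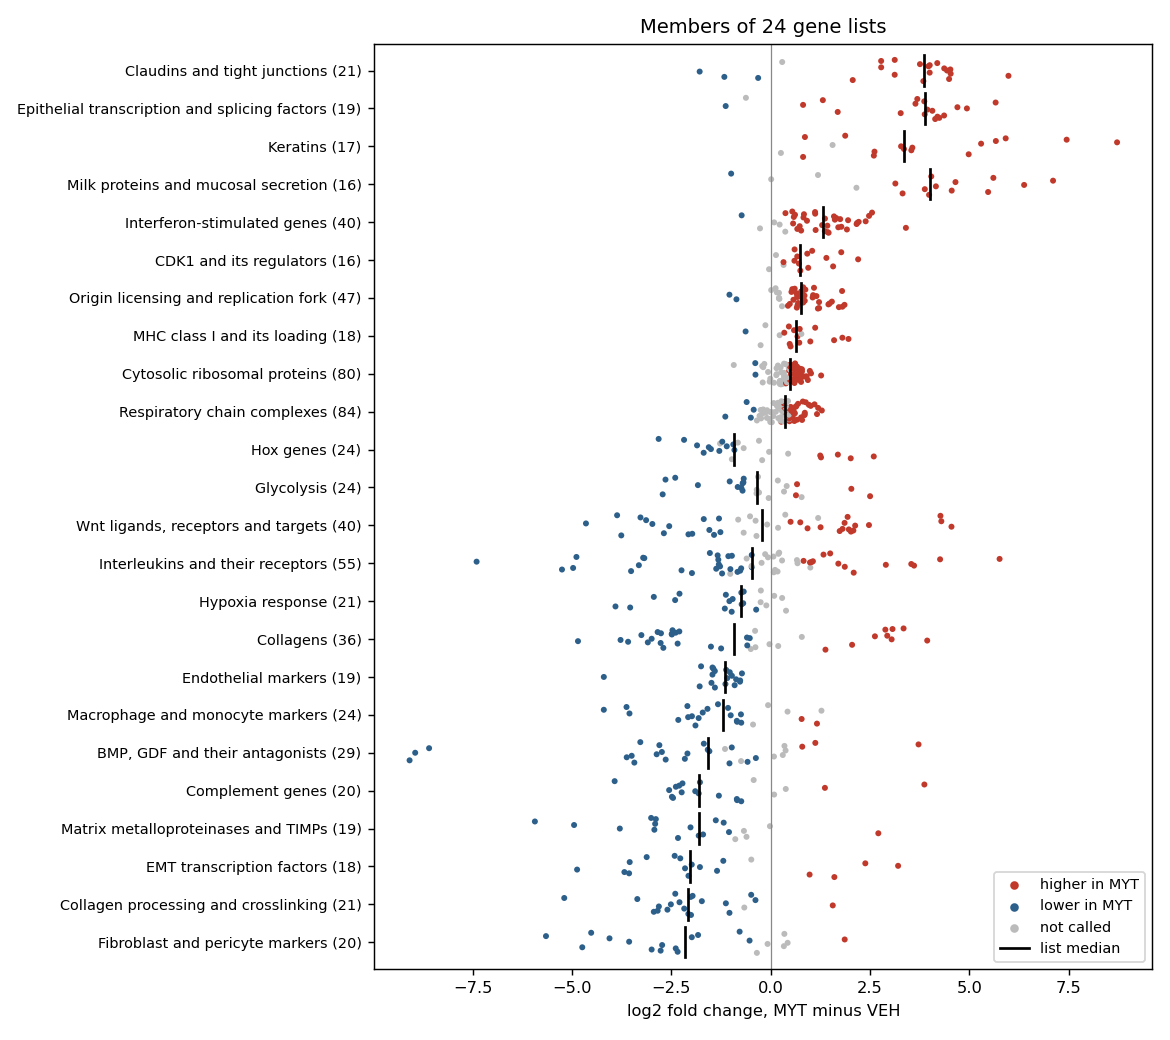
Log2 fold change (MYT minus VEH) of every tested member of 24 lists, with the number tested in parentheses and a bar at the list median. Claudins, keratins, epithelial factors and milk genes lie mostly to the right (medians 3.36 to 4.02), EMT factors and collagen crosslinking mostly to the left (medians -2.03 and -2.07), and Hox, Wnt, interleukin and collagen members lie on both sides.

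Of 24 glycolysis genes, 4 rose and 11 fell, with the neuronal enolase Eno2 (-2.72 ± 0.27), the lactate exporter Slc16a3 (-2.65 ± 0.21) and muscle phosphofructokinase Pfkm (-1.83 ± 0.13) lower and Aldoc (2.50 ± 0.30) and Ldhb (2.03 ± 0.42) higher. Of 21 hypoxia response genes, 15 fell and 0 rose. Hif1a, the oxygen-regulated factor itself, had 55.3 to 102 CPM in MYT tumours (median 80.2), against 477, 627, 251 and 335 CPM in VEH tumours (-2.40 ± 0.18), and Car9, a target, fell by 3.90 with an SE of 0.25. In lipid metabolism, Scd1, the fatty acid desaturase, had 536 to 1560 CPM in MYT tumours (median 781), against 272, 179, 215 and 138 CPM in VEH tumours (2.10 ± 0.26), while Fasn was not called (-0.25 ± 0.16). Ptgs2, the inducible prostaglandin synthase COX-2, had 1.73 to 10.1 CPM in MYT tumours (median 6.52), against 138, 171, 47 and 135 CPM in VEH tumours (-4.36 ± 0.39). Drug transporters gave 10 lower and 0 higher of 16. Abcb1a and Abcb1b, which together encode the mouse counterparts of P-glycoprotein, fell by 3.96 (SE 0.42) and 4.44 (SE 0.59), and Abcb1b had 0.411 to 14.7 CPM in MYT tumours (median 1.69), against 72.5, 84.9, 68.3 and 75 CPM in VEH tumours.

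Genes of protein synthesis and degradation moved differently by list. Cytosolic ribosomal protein genes gave 45 higher and 2 lower of 80 (median 0.49), mitochondrial ribosomal proteins 43 higher and 3 lower of 77 (0.41), the respiratory chain 41 higher and 4 lower of 84 (0.37) and the proteasome 23 higher and 3 lower of 41 (0.38). Lysosome and autophagy genes gave 5 higher and 16 lower of 34 (-0.33), and the endoplasmic reticulum stress response 5 higher and 8 lower of 23 (-0.06). Some ribosomal protein genes have near-identical pseudogenes, so their counts are uncertain. In the BCL2 family, Bcl2l2, a survival gene, was among the most sharply separated of all, with 38.7 to 50.2 CPM in MYT tumours (median 44.1), against 186, 242, 229 and 229 CPM in VEH tumours (-2.33 ± 0.09, edgeR adjusted p = 1.94e-11). Bcl2 (1.04 ± 0.14) and Bcl2l1 (1.15 ± 0.19) rose, Bok (-2.97 ± 0.29) fell and Mcl1 was not called (0.04 ± 0.09).

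Some abundant genes were level between the groups. Of genes that were not called, Hmg20b, Tmem234, Fbxo11, Calm3, Arnt, Rnf216, Zfp384 and Qars had the intervals that reached least far from 0. Hmg20b, a chromatin-associated HMG protein gene, had 95.3 to 118 CPM in MYT tumours (median 108) and 112, 105, 115 and 102 CPM in VEH tumours (-0.01 ± 0.08).

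Differences were spread unevenly over the genome. By GENCODE M21 positions, 57.9% of 869 tested genes on chromosome 9 fell and 11.5% rose, a median log2 fold change of -0.53, and on chromosome 14 it was 53% lower and 14.6% higher of 534 (median -0.44). Chromosomes 12 (43.2% lower, 14.9% higher, median -0.39) and 8 (38.9% lower, 15.4% higher, median -0.22) leaned the same way. Chromosome 13 gave 44.5% higher and 17% lower (median 0.35), chromosome 3 gave 45.3% and 20.9% (median 0.31) and chromosome 1 gave 42.4% and 20.2% (median 0.31). On chromosomes 9, 14 and 12 the lean ran along the whole chromosome. The median was below 0 in 13 of 13 windows of 10 megabases with at least 20 tested genes on chromosome 9. It was below 0 in 7 of 7 such windows on chromosome 14 and in 11 of 11 on chromosome 12. On chromosome 1 it was above 0 in all but 1 of 17 windows. That count does not set chromosome 1 apart. Chromosome 2 (median 0.12) had 1 of 18 windows below 0 and chromosome 7 (median 0.19) had 1 of 15.

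The same was seen library by library. For each library, the log2 CPM of 12287 genes was taken relative to the midpoint of both group means and to the library's own median. The median over 670 genes of chromosome 9 was then -0.37 to -0.22 in the 11 MYT tumours (median -0.30), against 0.18, 0.37, 0.42 and 0.22 in the 4 VEH tumours. On chromosome 14 it was -0.32 to -0.19 in MYT tumours and 0.19 to 0.32 in VEH tumours. In all, 11 of 20 chromosomes had no overlap between groups, 4 of them lower in MYT tumours (8, 9, 12 and 14) and 7 higher (1, 3, 7, 13, 16, 17 and 19). The groups nearly touched on chromosome 8 (-0.37 to -0.04 in MYT tumours, -0.03 to 0.24 in VEH tumours). They nearly touched on chromosome 19 too (-0.04 to 0.45 in MYT tumours, -0.13 to -0.05 in VEH tumours). On chromosome 8 the VEH tumour nearest to MYT was replicate 4 (-0.03), with replicate 3 next (0.13). Relative to the 5 tumours titled WT instead, chromosome 9 stood at -0.68 to -0.58 in MYT tumours and -0.19 to 0.08 in VEH tumours, and chromosome 14 at -0.59 to -0.45 in MYT tumours and -0.12 to 0.07 in VEH tumours. Chromosome 15 stood above WT in both, at 0.21 to 0.72 in MYT tumours and 0.39 to 0.46 in VEH tumours. Chromosome 7 stood below WT in both, at -0.36 to -0.16 in MYT tumours and -0.53 to -0.38 in VEH tumours. So did chromosome 11, at -0.37 to -0.06 in MYT tumours and -0.26 to -0.19 in VEH tumours. Of the 5 tumours titled SPON, replicates 3 and 4 were also low on chromosome 9 relative to WT (-0.47 and -0.53) and the other 3 stood at -0.05 to 0.00.

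**Figure D4:**
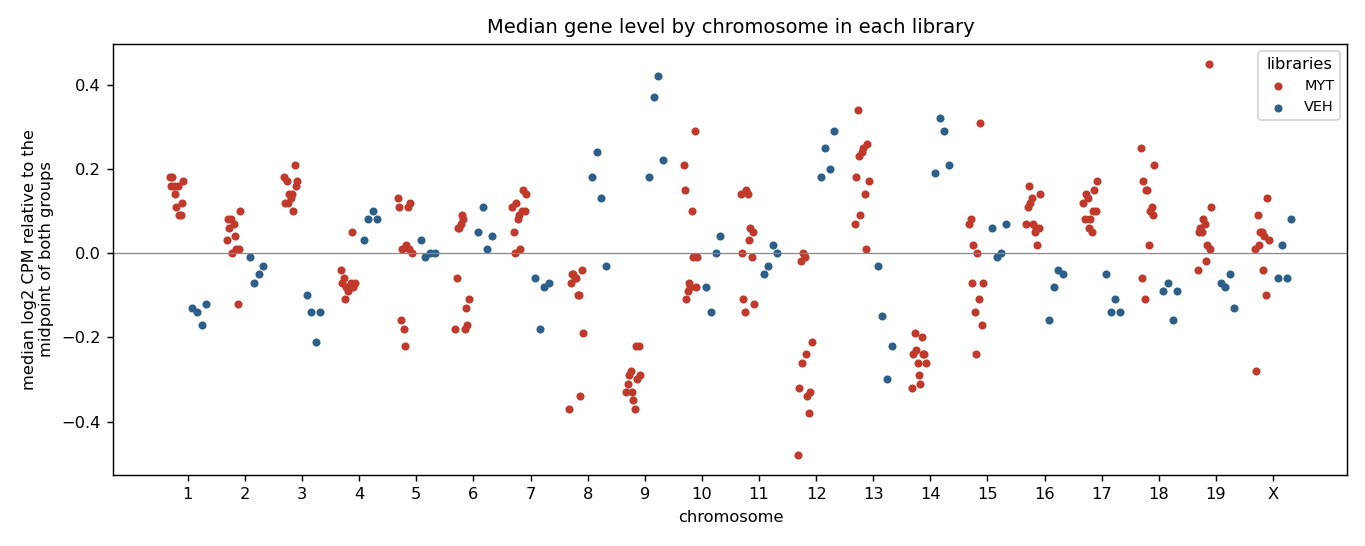
Median log2 CPM of the genes of each chromosome in each library, relative to the midpoint of the MYT and VEH means and to the library's own median, MYT points left of VEH points. Chromosomes 9 and 14 are low in all 11 MYT libraries, chromosomes 1 and 3 are high in all 11, and chromosomes 5, 6, 12 and 15 vary among MYT libraries.

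MYT tumours differed from each other on other chromosomes. On chromosome 6 replicates 3 to 7, whose title numbers have 4 digits, had 0.06 to 0.09, and the other 6, whose title numbers have 3 digits, had -0.18 to -0.06. On chromosome 12, replicates 3, 5 and 6 had -0.02, 0.00 and -0.01, against -0.48 to -0.21 in the other 8. The same 3 tumours were low on chromosome 5 (-0.16, -0.18 and -0.22, against 0.00 to 0.13 in the rest). Replicates 1 and 9 were low on chromosome 8 (-0.37 and -0.34, against -0.19 to -0.04) and replicate 9 was high on chromosome 19 (0.45, against -0.04 to 0.11). The files hold RNA counts and no measure of DNA, so what lies behind these chromosome-wide values was not tested.

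The chromosomes cut across the gene lists. In 10 lists of replication, repair, CDK1, the TCA cycle, respiration, ribosomes, tRNA synthetases and the proteasome, 58.6% of 418 members on other chromosomes rose and 4.07% fell (median 0.46). Of their 25 members on chromosome 9, 1 rose (4%) and 10 fell (40%), a median of -0.18, and of 14 members on chromosome 14, 0 rose and 6 fell (42.9%). The members that fell included Sdhd (-1.06 ± 0.14), Dlat (-0.73 ± 0.08), Uqcrc1 (-0.60 ± 0.09), Mrpl3 (-0.89 ± 0.13), Rpl4 (-0.38 ± 0.12) and Mre11a of chromosome 9. Of 16010 tested genes with a position, 869 lay on chromosome 9 and 534 on chromosome 14, the 2 chromosomes with the largest shares of genes that fell. Among the 10 genes with the smallest p, with predicted, clone, Riken and pseudogene names left out, 7 lay on these 2 chromosomes. They included Myo5a (-3.09 ± 0.13) and Bmp5 on chromosome 9, and Trim35 (-3.67 ± 0.14), Bcl2l2, Pxk (-2.33 ± 0.11) and Slitrk6 (-5.30 ± 0.25) on chromosome 14. The Riken gene 1190002N15Rik of chromosome 9, outside that ranking, fell as well (-3.34 ± 0.16). Trim35, an E3 ligase gene, had 6.16 to 12.3 CPM in MYT tumours (median 9.47), against 124, 131, 130 and 102 CPM in VEH tumours, a difference far beyond the chromosome's median.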

How the data were processed

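The authors deposited a table of counts per gene and a table of log2 CPM for 33 libraries. The submitters' processing notes name STAR 2.7.10a, HTSeq, edgeR and GRCm38. The deposited log2 values differed from recomputed ones by 0.0576 and entered no test. Of the 54532 genes, 791 have an identifier but no symbol (0.0482% of counts) and stayed in the fit.

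From the deposited counts, genes passing filterByExpr in the 15 libraries were scaled by TMM and tested with edgeR 4.0.16 (quasi-likelihood, Benjamini-Hochberg, adjusted p under 0.05). The SE is the absolute fold change over the square root of F. DESeq2 1.42.0 and limma 3.58.1 were alternatives. Replicate counts differed beyond sampling noise (chi-square per degree of freedom at least 16.12 over 61 pairs), and the procedure was tested on simulated data. There 200 of 16021 genes were changed, far fewer than were called in these data. The test recovered 56% of the 2-fold and 95% of the 4-fold changes, with 9 false calls.

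Members, lists and tests were chosen with earlier results of these data known, and 2 name patterns were trimmed after matching unrelated genes. Genes were named by smallest p, largest change at an average log2 CPM of at least 6, list membership and narrowest intervals; others were chosen after their values were seen. Promoters came from RefSeq, the 1st window listed per symbol. Some items are not reported here.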

Additional observations from a re-analysis of the deposited data

Results flagged for a closer look

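Of 196 named genes that were tested, 9 had 1 VEH tumour far from the other 3 on the log2 CPM scale, by a gap above Dixon's critical value for 4 samples. Chance flags about 1 in 20 groups. VEH replicate 1 stood low in Gata3 (3.43, others 3.74 to 3.80) and Zeb2 (6.81, others 7.18 to 7.19), and high in Cdc25a (5.13, others 4.63 to 4.70) and Erbb2 (5.88, others 5.27 to 5.32). VEH replicate 2 stood low in Col4a5 (3.54, others 4.73 to 4.96). VEH replicate 3 stood low in Mrc1 (7.58, others 8.46 to 8.63) and S100a9 (1.37, others 3.75 to 3.95), and high in Isg15 (4.40, others 3.73 to 3.84) and Rnf216 (6.28, others 6.05 to 6.07).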

How the results depend on the processing

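The counts of 4883 higher and 4648 lower genes stayed within 1.5 times under every alternative run but a test against a fold of at least 2, which called 1217 and 1600. Leaving out 1 library gave 4295 to 4957 higher and 4185 to 4712 lower. Chromosome medians were compared over genes of average log2 CPM of at least 2, not over all tested genes as in the percentages of genes called. On that scale they were -0.55 (chromosome 9), -0.43 (14), -0.39 (12), -0.21 (8), 0.36 (3), 0.42 (13) and 0.35 (1). Without 1 library they kept their sign: -0.58 to -0.50 on chromosome 9, -0.45 to -0.41 on 14, -0.41 to -0.35 on 12, -0.26 to -0.17 on 8, 0.34 to 0.38 on 3, 0.37 to 0.48 on 13 and 0.34 to 0.36 on 1. With MYT replicates 1, 2, 8, 9 and 10 alone the medians were -0.51 (14), -0.59 (12), 0.31 (13) and 0.30 (1). With VEH replicates 3 and 4 alone they were 0.41 (3) and 0.52 (13), and 22.5% of promoters of higher genes held CACCTG. In settings chosen after seeing the data, chromosome 9 stood at -0.60 without VEH replicate 1 and MYT replicates 8 and 10, chromosomes 3 and 1 at 0.48 and 0.42 for genes of average log2 CPM of at least 5. Over all tested genes, the scale of the medians printed with the calls, both were 0.31. Past a fold of 2, promoters of higher genes held CCAAT in 38%, TTTGAA in 15.7%, TTTCCCGC in 2.15%, CACCTG in 33%, TGANTCA in 6.93% and GGAATG in 15.5%, and those of lower genes TTTCCCGC in 0.887% and TGANTCA in 8.24%. Besides the genes whose changed calls stand in the report, a fit over 32 libraries lost the calls of Cd14 (adjusted p = 0.0606), Id1 (0.255), Pmaip1 (0.0597), Rpl4 (0.0677) and Krt8 (0.0577). VEH replicates 3 and 4 alone lost Cldn15 (0.207) and Msx1 (0.068), and MYT replicates 1, 2, 8, 9 and 10 alone lost Tgfa (0.0614), all by edgeR. Cdc25a, called higher on all 15 libraries, lost its call in the fit over 32 libraries (edgeR adjusted p = 0.0878). It also lost its call without VEH replicate 2, 3 or 4 (edgeR adjusted p = 0.112, 0.12 and 0.109). With MYT replicates 3 to 7 alone (edgeR adjusted p = 0.301) and under DESeq2's Wald test (adjusted p = 0.0513) it was lost too, among other runs. The cause of these shifts was not tested. No paired analysis was possible because replicate numbers only follow the order of the samples and the title numbers are not shared between the 2 groups. With 4 VEH tumours, 1 library decides some calls near the threshold, and genes of few counts have wide intervals.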

Other observations

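The tumour titled VEH whose treatment field names RP-6306 entered no comparison. Its log2 CPM correlated across genes at a mean r of 0.814 with MYT libraries and 0.963 with VEH libraries, a description over genes that are not independent. It held 31.6 CPM of Pkmyt1, 1.37 CPM of Epcam, 5490 CPM of Vim, 1.92 CPM of Sox10, 9150 CPM of Fn1 and 88.3 CPM of Grem1.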
